A study of Mus musculus with 29 samples.

Results

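Isolated small-intestinal crypts of H2BdIEC mice were compared with crypts of H2B flox/flox mice across all genes. The set was chosen by tissue, age and genotype label and holds 8 of the 29 libraries of the series, 4 per genotype. The H2BdIEC mice carry a deletion of Rnaseh2b in the intestinal epithelium, as read from the series' title and the genotype name, and the H2B flox/flox mice, called controls here, carry the floxed alleles. All mice were of the C57BL/6 strain and 52 weeks old, and the labels give no treatment. The Cre driver and the floxed exons are not given in the sources used here. Each library has its own number in the labels, which do not say how many animals it came from, so p-values measure the spread between these libraries.

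RNase H2 is a nuclear enzyme of a catalytic subunit, RNASEH2A, and the partners RNASEH2B and RNASEH2C. It cuts RNA paired with DNA and starts ribonucleotide excision repair, the removal of ribonucleotides that DNA polymerases build into the genome. Without it, topoisomerase 1 cuts at these sites and leaves DNA breaks, which can activate p53. Crypts hold the dividing cells of the small intestine: stem cells lie among Paneth cells at the base, and their progeny become absorptive enterocytes or secretory goblet, enteroendocrine and tuft cells as they move towards the villus.

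Gene counts per library totalled 15545059 to 18817537 in H2BdIEC crypts and 23118463 to 25913155 in control crypts. CPM is a gene's count rescaled by its library's TMM-adjusted size, and bare values before an adjusted p are log2 fold changes. Principal components of log2 CPM were computed over the most variable tested genes alone. The first held 50.9% of the variance of those genes and separated the genotypes. The second, with 18.2%, set control 4 apart. Mitochondrially encoded genes took 9.30, 15.7, 11 and 11.6% of counts in H2BdIEC crypts, against 4.33, 4.42, 5.09 and 10.4% in control crypts. Control 4 lay within the H2BdIEC range (exact two-sided permutation test, p = 0.0571, where 0.0286 is the smallest p that 4 against 4 libraries allow). Without control 4 the same exact two-sided permutation test gave p = 0.0286, the smallest it allows. The exact two-sided permutation test gave p = 0.0571 without H2BdIEC 1 and p = 0.0857 without any other single library. Gm26917 and Gm42418, neighbouring gene models on chromosome 17 (39843013 to 39846341 and 39846958 to 39848788 on GRCm38) at a locus where RefSeq places an 18S ribosomal RNA gene, took 4.58, 7.17, 5.56 and 5.09% of counts in H2BdIEC crypts, against 2.49, 1.85, 2.56 and 1.34% in control crypts. Xist and Y-linked counts put H2BdIEC 1, H2BdIEC 2 and control 4 with female libraries and the other 5 with male ones. Epithelial markers summed to 8270 to 9256 CPM in H2BdIEC and 9482 to 9953 CPM in control crypts, and 0 of 9 passed the edgeR test in either direction (5 at an unadjusted p under 0.05, and 1 higher and 4 lower with DESeq2). Of the markers of T cells, B cells, myeloid cells, fibroblasts, endothelium and red cells, 0 of 52 tested passed it (4 at an unadjusted p under 0.05, and 0 with DESeq2). T cell markers summed to 163 to 623 CPM in H2BdIEC crypts, against 112 to 401 CPM in control crypts. How far composition, sex and these shares take part in the results was not tested except where stated.

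Rnaseh2b, the targeted gene (chromosome 14, 62292589 to 62372992), had 2.71, 2.47, 2.71 and 2.13 CPM in H2BdIEC, against 13.7, 6.87, 7.39 and 14.4 CPM in control crypts. The H2BdIEC libraries lay close together and below every control library, and the control libraries fell into a higher pair and a lower pair. Rnaseh2b fell with a log2 fold change of -2.08 ± 0.27 (SE) and an adjusted p of 0.00229 (edgeR quasi-likelihood test, Benjamini-Hochberg over 14596 genes). The catalytic subunit gene Rnaseh2a also fell, with 19.1, 14.4, 18.1 and 16.7 CPM in H2BdIEC, against 24.6, 21.6, 23.5 and 25.2 CPM in control crypts (log2 fold change -0.48 ± 0.11, adjusted p = 0.024). That call was lost without H2BdIEC 4 or without control 1, 3 or 4. The groups overlapped for the third subunit, Rnaseh2c, with 18, 10.8, 17.5 and 16.7 CPM in H2BdIEC and 17.9, 16.6, 18.4 and 18 CPM in control crypts (log2 fold change -0.17 ± 0.15, adjusted p = 0.491). They also overlapped for Rnaseh1, which removes longer RNA stretches paired with DNA (-0.03, adjusted p = 0.914). Top1, the topoisomerase that cuts at ribonucleotides, had 106, 103, 142 and 122 CPM in H2BdIEC and 107, 112, 95.9 and 109 CPM in control crypts (log2 fold change 0.16 ± 0.12, adjusted p = 0.393). Samhd1, which degrades deoxynucleotides, lay just inside the threshold (0.43, adjusted p = 0.0497), and its call was lost without any of 6 of the 8 libraries.

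Of the 14596 genes tested, 753 or 5.16% were higher and 711 or 4.87% were lower at an adjusted p under 0.05, with a median log2 fold change over all genes of -0.01. These shares are the background for the counts of list members that follow. The median size of the change among the 1464 genes called was 0.75 on the log2 scale, and the groups did not overlap for 1340 of them. The counts of calls depended on single libraries: without control 3 they were 277 higher and 204 lower, without H2BdIEC 4 they were 307 and 201, and without control 1 they were 376 and 280. Without H2BdIEC 2, H2BdIEC 3 or control 4 the genes called lower were 441, 386 and 458 in turn.

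Genes were ranked by p among well-expressed protein-coding genes with a standard symbol and no overlap between groups, leaving out Xist and Y-linked genes. The 12 with the smallest p in the higher direction were Zmat3, Lama5, Mt1, Ccp110, Acta1, Psrc1, Pik3r3, Gsta3, Fbxw9, Abcc5, Gtse1 and Sulf2. Lama5, a laminin chain of the basement membrane, had 121, 130.4, 108 and 106 CPM in H2BdIEC, against 26.1, 19.5, 32.3 and 19 CPM in control crypts (log2 fold change 2.26 ± 0.17, adjusted p = 0.000145). Ccp110, which caps centrioles, had 16.8, 22.4, 19.5 and 16.4 CPM in H2BdIEC, against 6.45, 6.62, 5.95 and 5.57 CPM in control crypts (log2 fold change 1.61 ± 0.13, adjusted p = 0.000197). Every H2BdIEC library was more than 2-fold above every control library for both genes. Acta1, the actin of skeletal muscle, had 89.7, 94.2, 64.4 and 55.2 CPM in H2BdIEC, against 11, 8.35, 6.1 and 10.7 CPM in control crypts (log2 fold change 3.07 ± 0.23, adjusted p = 0.000197). Of the other skeletal muscle genes, Mylpf, a myosin light chain, averaged 1.82 ± 0.308 CPM in H2BdIEC crypts and 1.83 ± 0.198 in control crypts (SD, n = 4 each). Ckm totalled 8 counts over the H2BdIEC and 11 over the control libraries, and Myh4 had 0 in all 8. Pik3r3, a regulatory subunit of PI3-kinase, averaged 17.7 ± 2.12 CPM in H2BdIEC and 6.39 ± 1.07 CPM in control crypts (SD, n = 4 each). The ubiquitin ligase subunit gene Fbxw9 averaged 37.8 ± 3.35 CPM in H2BdIEC and 19.6 ± 1.87 CPM in control crypts. The transporter gene Abcc5 averaged 28 ± 4.17 CPM in H2BdIEC and 12.6 ± 1.3 CPM in control crypts. In the lower direction the 12 were Cstf2t, Bmp3, Tfcp2l1, Olfm4, Sdc4, Fsd1l, Dpysl2, Slc1a1, Fam174b, Itpripl2, Igf1r and Rnf130. Cstf2t, an intronless relative of the RNA cleavage factor gene Cstf2 (chromosome 19, 31082837 to 31087069), had 6.99, 13.9, 11.7 and 8.28 CPM in H2BdIEC, against 37.9, 38.8, 36.1 and 43.3 CPM in control crypts (log2 fold change -1.94 ± 0.19, adjusted p = 0.000493). The transcription factor gene Tfcp2l1 had 34, 41.3, 35.1 and 35.9 CPM in H2BdIEC, against 85.1, 84.8, 89.1 and 65 CPM in control crypts, with both groups narrow and far apart. Igf1r, the receptor for insulin-like growth factors, had 18, 13.6, 12.4 and 12.1 CPM in H2BdIEC, against 37.1, 29.9, 45.1 and 29.1 CPM in control crypts (log2 fold change -1.33 ± 0.17, adjusted p = 0.00229). The heparan sulfate proteoglycan gene Sdc4 averaged 100.2 ± 10.8 CPM in H2BdIEC and 193 ± 14.2 CPM in control crypts. None of these 24 calls was lost when any 1 library was left out. The 24 genes were chosen for a small p and separate groups in the same libraries, so this gives no separate support.

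Many targets of p53, the transcription factor activated by DNA damage, rose in H2BdIEC crypts. Among targets of cell-cycle arrest and RNA control 13 of 16 tested members rose and 0 fell, with a median log2 fold change of 1.01. Among targets of cell death 8 of 13 rose and 0 fell, with a median of 0.84. Among targets of metabolism and repair 4 of 14 rose and 0 fell, with a median of 0.26. Leaving out 1 library gave 12 to 14, 6 to 8 and 4 members called higher in the 3 lists. Zmat3, an RNA-binding regulator of splicing, had 45.6, 35.2, 38.7 and 45.5 CPM in H2BdIEC, against 14.3, 14.3, 15.5 and 14.4 CPM in control crypts (log2 fold change 1.49 ± 0.11, adjusted p = 0.000133). Control libraries spanned only 14.3 to 15.5 CPM, and every H2BdIEC library was more than 2-fold above them.

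**Figure D1:**
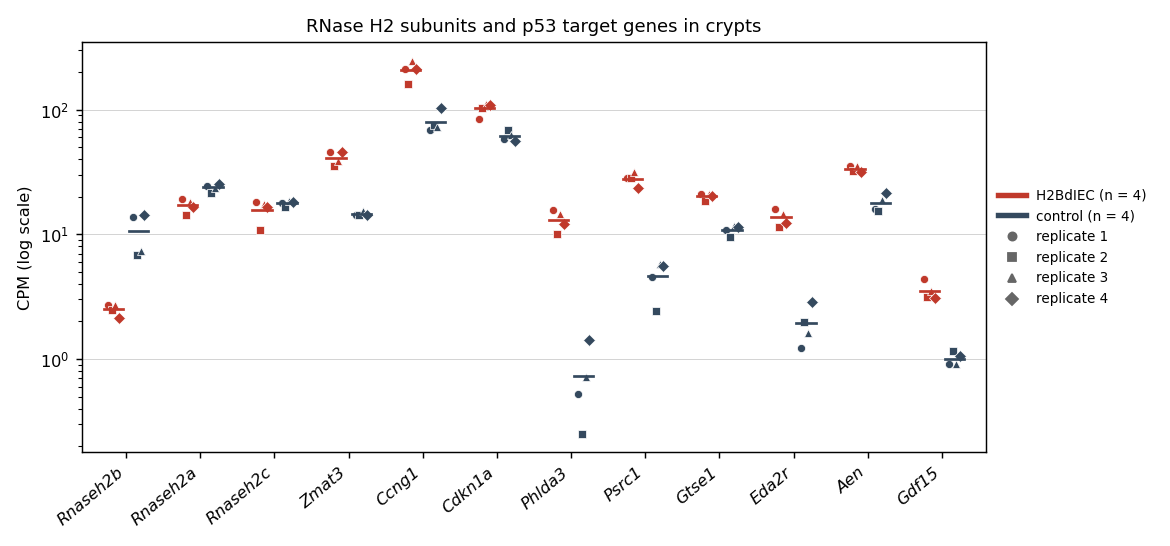
CPM on a log scale of RNase H2 subunit genes and p53 target genes in each crypt library, with H2BdIEC left of control, marker shapes for replicates 1 to 4 and a bar at the mean. Rnaseh2b lies lower in all H2BdIEC libraries, and Rnaseh2c overlaps. The 9 p53 targets shown, chosen from those called, lie higher in every H2BdIEC library than in any control library.

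Among the arrest genes, Ccng1, which encodes cyclin G1, had the highest CPM, with 213, 159, 245 and 213 CPM in H2BdIEC, against 68.6, 75.8, 72 and 103 CPM in control crypts (log2 fold change 1.38 ± 0.16, adjusted p = 0.0013). Cdkn1a, which encodes the cell-cycle inhibitor p21, moved less, with 84.8, 104, 109.9 and 109.7 CPM in H2BdIEC, against 58.3, 68.2, 62.3 and 56.5 CPM in control crypts (log2 fold change 0.74 ± 0.11, adjusted p = 0.00374). Phlda3, an inhibitor of AKT signalling named here after its values were seen, was near 0 in controls, with 15.8, 10.1, 14.6 and 12 CPM in H2BdIEC, against 0.526, 0.252, 0.72 and 1.42 CPM in control crypts (log2 fold change 4.18 ± 0.39, adjusted p = 0.000493). Psrc1, a spindle protein gene, had 28.5, 28.3, 31.4 and 23.4 CPM in H2BdIEC, against 4.56, 2.45, 5.8 and 5.57 CPM in control crypts (log2 fold change 2.6 ± 0.23, adjusted p = 0.000378). Gtse1, which binds p53 in G2, averaged 20.3 ± 1.26 CPM in H2BdIEC and 10.9 ± 0.942 CPM in control crypts (log2 fold change 0.9 ± 0.1, adjusted p = 0.00127). The long noncoding RNAs Pvt1 and Trp53cor1 rose too, by log2 fold changes of 2.49 ± 0.22 and 4.26 ± 0.39. Trp53cor1, also called lincRNA-p21, rested on few counts, 26, 26, 27 and 19 in H2BdIEC crypts and 3, 1, 2 and 2 in control crypts. Sesn1 did not pass the test and its groups overlapped (log2 fold change 0.34 ± 0.12, adjusted p = 0.0884).

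Of the cell-death targets, the death receptor gene Eda2r had 16.1, 11.5, 14.6 and 12.4 CPM in H2BdIEC, against 1.23, 1.98, 1.63 and 2.89 CPM in control crypts (log2 fold change 2.83 ± 0.24, adjusted p = 0.00023). The exonuclease gene Aen had 35.1, 32, 35.3 and 31.6 CPM in H2BdIEC, against 15.9, 15.4, 19 and 21.5 CPM in control crypts (log2 fold change 0.9 ± 0.12, adjusted p = 0.00252). Dcxr, counted in this list although it encodes a carbonyl reductase, a metabolic enzyme, averaged 36.8 ± 2.79 CPM in H2BdIEC and 17.2 ± 3.76 CPM in control crypts. The TRAIL receptor gene Tnfrsf10b averaged 13.8 ± 1.42 CPM in H2BdIEC and 7.71 ± 1.06 CPM in control crypts. All 4 calls held without any single library. The 3 members of this list with the highest CPM lay within the spread of the libraries: Perp, a desmosomal protein of apoptosis (log2 fold change -0.02 ± 0.12, adjusted p = 0.932), Apaf1 of the apoptosome (log2 fold change 0.23 ± 0.16, adjusted p = 0.37) and Ei24 (adjusted p = 0.982). Among targets of metabolism, Gdf15, a stress-induced secreted factor, had 4.39, 3.15, 3.48 and 3.08 CPM in H2BdIEC, against 0.912, 1.15, 0.91 and 1.05 CPM in control crypts (log2 fold change 1.81 ± 0.22, adjusted p = 0.00167). Ephx1, an epoxide hydrolase that is also an NRF2 target, had 84.4, 43.3, 56.4 and 73.7 CPM in H2BdIEC, against 7.89, 7.45, 11.2 and 16.5 CPM in control crypts (log2 fold change 2.59 ± 0.3, adjusted p = 0.00245). Sulf2, which trims heparan sulfate outside the cell, averaged 149 ± 7.77 CPM in H2BdIEC and 70.3 ± 12.8 CPM in control crypts. Dglucy rose by 0.77 ± 0.14 on the log2 scale, and Rps27l did not pass the test (log2 fold change 0.63 ± 0.23, adjusted p = 0.107).

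Of 6 tested CDK inhibitors 1 rose, which was Cdkn1a itself, and 3 fell, and the count that fell was 0 without H2BdIEC 4 and 1 without H2BdIEC 3, control 1 or control 3, while 2 rose without control 4. Cdkn1b, which encodes p27, had 43.5, 42.5, 44.4 and 41.5 CPM in H2BdIEC, against 54.7, 54.6, 55 and 60.4 CPM in control crypts (log2 fold change -0.39 ± 0.08, adjusted p = 0.0151). Cdkn2c and Cdkn2d, which inhibit CDK4 and CDK6, fell with log2 fold changes of -0.71 ± 0.16 and -0.66 ± 0.16, each lost without any of 5 libraries. In the DNA damage and repair list 1 of 25 tested members rose and 2 fell, near the background in the higher direction, and 6 fell without H2BdIEC 1. Atm, the kinase that responds to double-strand breaks, had 46.6, 41.2, 36.8 and 31.9 CPM in H2BdIEC, against 64.9, 58.1, 64.7 and 54.9 CPM in control crypts (log2 fold change -0.63 ± 0.12, adjusted p = 0.0122). Fanca, of the Fanconi anaemia pathway, was called higher (0.46, adjusted p = 0.0367), a call lost without any of 7 of the 8 libraries. H2afx had no overlap between groups but did not pass the test (log2 fold change -0.46 ± 0.15, adjusted p = 0.0751).

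The promoters of p53 targets that rose are shown because the list moved together. RefSeq promoter windows of 300 bases on GRCm38.p6 were found for 20 of the 25 targets that rose. Of these windows 5, or 25%, held a p53 half-site on either strand, against 2 of 11 other tested targets and 8.34% of all 27025 promoters. The 3 windows with a match and the smallest p are printed with the half-sites in capitals. A match is a run of letters, not a site known to be bound.
Ccng1 (GRCm38.p6, chr11:40755237-40755536, minus strand): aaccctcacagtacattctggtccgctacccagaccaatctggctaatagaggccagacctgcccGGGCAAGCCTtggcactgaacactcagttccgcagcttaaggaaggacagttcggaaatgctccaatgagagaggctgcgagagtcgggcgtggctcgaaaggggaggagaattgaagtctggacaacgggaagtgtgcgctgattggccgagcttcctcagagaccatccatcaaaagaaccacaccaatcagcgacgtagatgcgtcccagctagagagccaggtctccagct
Aen (GRCm38.p6, chr7:78895677-78895976, plus strand): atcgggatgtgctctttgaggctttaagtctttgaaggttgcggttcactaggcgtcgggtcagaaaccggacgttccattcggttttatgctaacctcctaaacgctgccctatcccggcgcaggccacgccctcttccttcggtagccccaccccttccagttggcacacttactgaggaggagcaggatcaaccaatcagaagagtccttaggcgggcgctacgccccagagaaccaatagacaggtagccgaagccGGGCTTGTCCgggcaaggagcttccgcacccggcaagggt
Cdkn1a (GRCm38.p6, chr17:29090729-29091028, plus strand): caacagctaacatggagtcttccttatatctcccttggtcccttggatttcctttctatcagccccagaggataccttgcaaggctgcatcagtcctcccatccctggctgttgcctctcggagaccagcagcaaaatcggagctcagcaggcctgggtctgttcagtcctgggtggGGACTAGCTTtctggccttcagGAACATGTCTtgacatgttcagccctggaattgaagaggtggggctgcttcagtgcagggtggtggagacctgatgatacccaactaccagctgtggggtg
Ccng1 and Aen have 1 match each and Cdkn1a has 2 in its window.

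Genes stimulated by interferon rose in part. Of 38 tested members 16 rose and 0 fell, with a median log2 fold change of 0.68, and the number that rose was 9 with control 3 dropped, 10 with H2BdIEC 4 dropped and 12 to 17 with any other library dropped. Oas2, an oligoadenylate synthetase that senses double-stranded RNA, had 5.47, 7.26, 7.09 and 6.21 CPM in H2BdIEC, against 3.02, 2.34, 2.46 and 1.93 CPM in control crypts (log2 fold change 1.41 ± 0.19, adjusted p = 0.00245). Oasl1, a relative without synthetase activity, had 60.9, 64.8, 92.2 and 73.3 CPM in H2BdIEC, against 35.8, 47.3, 36.4 and 41.8 CPM in control crypts (log2 fold change 0.85 ± 0.14, adjusted p = 0.00689). Oas1b averaged 5.15 ± 1.07 CPM in H2BdIEC and 1.65 ± 0.277 CPM in control crypts. The Oas1 genes are near-identical copies among which reads may be split, so single members of that family are uncertain. Rtp4, an interferon-induced chaperone of receptors, had 10.5, 11.9, 13.7 and 15.6 CPM in H2BdIEC, against 6.21, 7.31, 5.38 and 6.91 CPM in control crypts (log2 fold change 1.0 ± 0.16, adjusted p = 0.00538). None of these H2BdIEC libraries overlapped the controls. Chosen after their values were seen, Stat2, a transcription factor of the interferon response, had 48.5, 80.4, 65.7 and 63.8 CPM in H2BdIEC, against 42.2, 31.2, 30.3 and 28.3 CPM in control crypts (log2 fold change 0.97 ± 0.16, adjusted p = 0.00767). Isg15, a ubiquitin-like modifier, had 12.9, 18.3, 23.8 and 19.8 CPM in H2BdIEC, against 7.08, 10.7, 5.46 and 6.07 CPM in control crypts (log2 fold change 1.35 ± 0.24, adjusted p = 0.00899). Parp14 (log2 fold change 0.55 ± 0.22, adjusted p = 0.136), Dtx3l (log2 fold change 0.09 ± 0.14, adjusted p = 0.69) and Ifih1, an RNA sensor (log2 fold change 0.27 ± 0.13, adjusted p = 0.185), did not pass the test, and their groups overlapped.

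Windows of the interferon-stimulated genes that rose are printed to show an element found in most of the windows. The interferon-stimulated response element was searched on both strands as a TTTC, any 2 bases and another TTTC. It was present in 9 of the 12 risen members with a RefSeq window, or 75%, in 6 of 14 other tested members and in 3.52% of all promoters. The windows with a match and the smallest p are given with the matches in capitals.
Stat2 (GRCm38.p6, chr10:128270248-128270547, plus strand): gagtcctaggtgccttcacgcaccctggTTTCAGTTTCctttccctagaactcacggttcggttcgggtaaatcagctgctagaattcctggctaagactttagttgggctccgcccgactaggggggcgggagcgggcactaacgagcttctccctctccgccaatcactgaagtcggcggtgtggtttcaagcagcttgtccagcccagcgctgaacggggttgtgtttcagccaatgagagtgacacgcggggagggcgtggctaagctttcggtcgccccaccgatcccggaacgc
Isg15 (GRCm38.p6, chr4:156200769-156201068, minus strand): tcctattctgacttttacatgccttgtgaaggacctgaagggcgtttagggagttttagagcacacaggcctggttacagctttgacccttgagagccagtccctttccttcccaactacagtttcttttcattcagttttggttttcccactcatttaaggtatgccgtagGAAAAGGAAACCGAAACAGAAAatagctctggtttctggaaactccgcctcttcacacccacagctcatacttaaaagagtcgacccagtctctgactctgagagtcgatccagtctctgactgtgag
Oas1g (GRCm38.p6, chr5:120887564-120887863, minus strand): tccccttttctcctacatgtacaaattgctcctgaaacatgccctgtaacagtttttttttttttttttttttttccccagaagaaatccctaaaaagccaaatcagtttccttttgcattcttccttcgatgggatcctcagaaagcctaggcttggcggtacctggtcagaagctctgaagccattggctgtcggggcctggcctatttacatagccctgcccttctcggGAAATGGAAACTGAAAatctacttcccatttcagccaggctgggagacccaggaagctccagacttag
Trim30a (GRCm38.p6, chr7:104446076-104446375, minus strand): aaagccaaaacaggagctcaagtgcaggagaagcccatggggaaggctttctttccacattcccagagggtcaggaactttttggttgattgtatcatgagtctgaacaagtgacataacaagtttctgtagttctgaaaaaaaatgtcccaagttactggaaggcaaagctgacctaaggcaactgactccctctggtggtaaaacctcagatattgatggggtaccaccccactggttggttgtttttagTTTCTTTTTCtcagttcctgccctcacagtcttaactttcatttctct
Isg15 has 3 overlapping matches and Oas1g 2, all read on the opposite strand. Oas1g averaged 17 ± 3.51 CPM in H2BdIEC and 7.33 ± 2.37 CPM in control crypts. Trim30a, a tripartite-motif gene, averaged 19.4 ± 4.12 CPM in H2BdIEC and 9.54 ± 2.64 CPM in control crypts.

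Among nucleic acid sensors 2 of 12 tested members rose and 0 fell, with a median of 0.10. Aim2, a sensor of cytosolic double-stranded DNA, had 15.5, 16.6, 15.4 and 14.5 CPM in H2BdIEC, against 7.15, 2.74, 4.4 and 1.76 CPM in control crypts (log2 fold change 1.94 ± 0.35, adjusted p = 0.0123), so the H2BdIEC libraries were tight and the control libraries spread 4-fold. Tbk1, the kinase below several sensors, had 89.1, 128, 121 and 122 CPM in H2BdIEC and 74.5, 95.6, 77 and 81.1 CPM in control crypts with overlapping groups (log2 fold change 0.48 ± 0.13, adjusted p = 0.0388), a call lost without any of 6 of the 8 libraries. Nlrp6 (-0.09, adjusted p = 0.609) and Mavs (0.21, adjusted p = 0.195) did not pass the test. Genes of antigen presentation gave few calls. In the MHC class I list 1 of 18 tested members rose and 2 fell, with a median of 0.02, and H2-K1 (log2 fold change 0.04 ± 0.16, adjusted p = 0.886), B2m (log2 fold change 0.07 ± 0.14, adjusted p = 0.757) and H2-D1 (log2 fold change 0.02 ± 0.16, adjusted p = 0.961) overlapped between groups. The peptide trimming gene Erap1 (-0.46, adjusted p = 0.0252) and the immunoproteasome gene Psmb9 (-0.57, adjusted p = 0.0464) were called lower and H2-Q1 higher (0.73, adjusted p = 0.0345), and each call was lost without any of at least 5 libraries. In the class II list 0 of 9 rose and 2 fell, with a median of -0.67. H2-DMa, which loads peptides, had 22.6, 34.8, 22.3 and 29.8 CPM in H2BdIEC, against 57.4, 49.6, 45.6 and 37.2 CPM in control crypts (log2 fold change -0.8 ± 0.17, adjusted p = 0.0183). Cd74, the invariant chain, had 477, 836, 408 and 695 CPM in H2BdIEC, against 1267, 1077, 1101 and 861 CPM in control crypts (log2 fold change -0.83 ± 0.22, adjusted p = 0.0407). H2-Ab1 (-0.67, adjusted p = 0.124) and H2-Aa (-0.68, adjusted p = 0.173) did not pass. The class II count was 6 without H2BdIEC 2, which had the highest level of Cd74 among the H2BdIEC libraries, and 0 without control 3.

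**Figure D2:**
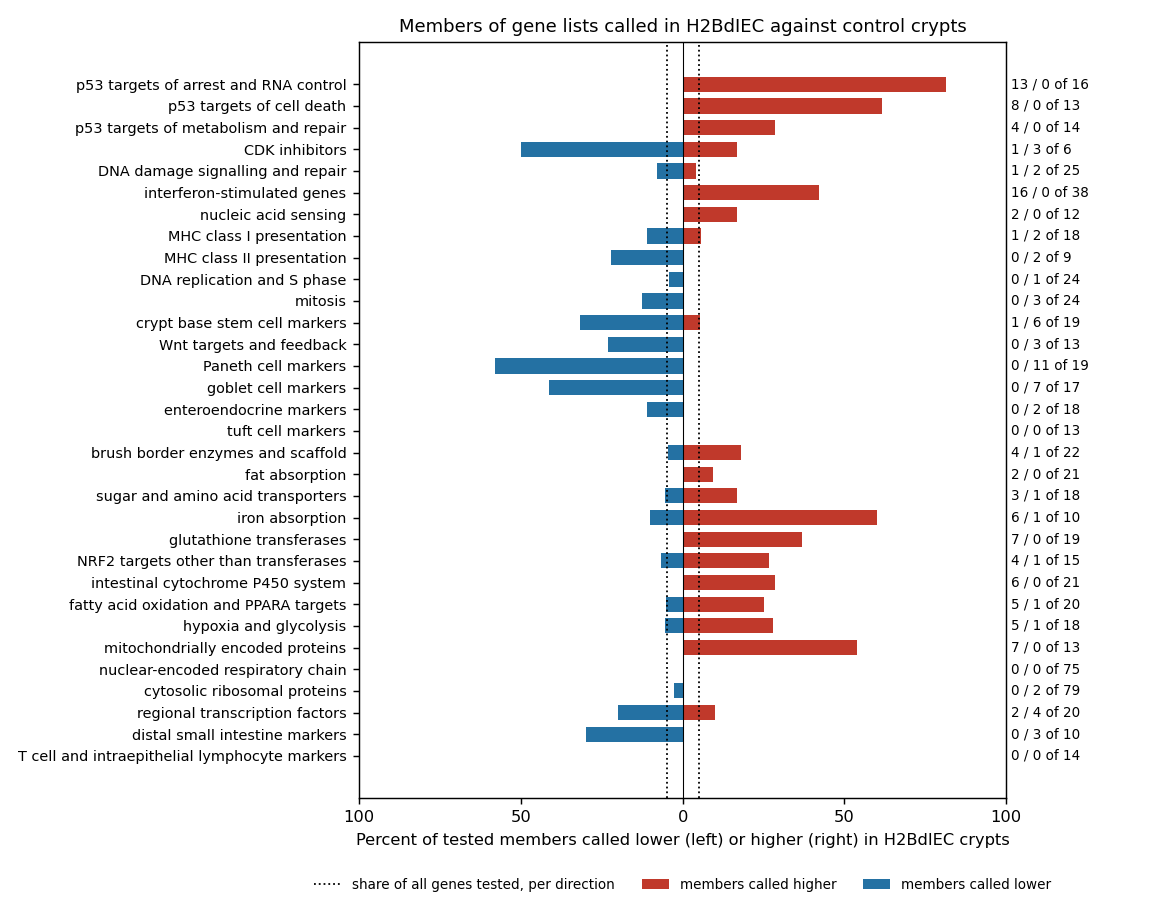
Percent of tested members called higher (right) or lower (left) in H2BdIEC crypts for 32 gene lists, with the counts higher, lower and tested at the right edge and dotted lines at 5.16% and 4.87% of all genes. The p53, interferon-stimulated, iron and transferase lists extend to the right, and the Paneth, goblet and stem cell lists extend to the left.

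Several markers of crypt base stem cells and of Paneth and goblet cells fell in H2BdIEC crypts. Of 19 tested stem cell markers 6 fell and 1 rose, with a median of -0.28. In bulk RNA, fewer cells of a type and less RNA per cell cannot be told apart. Olfm4, an abundant product of stem cells, had 224, 121, 180.0 and 162 CPM in H2BdIEC, against 626, 541, 492 and 554 CPM in control crypts (log2 fold change -1.69 ± 0.18, adjusted p = 0.000641). Lgr5, the Wnt-amplifying receptor that defines these cells, had 8.07, 5.02, 4.26 and 4.14 CPM in H2BdIEC, against 19.3, 13, 16.4 and 21.5 CPM in control crypts (log2 fold change -1.7 ± 0.23, adjusted p = 0.00283). Smoc2, a matrix protein of the crypt base, had 53.1, 32.4, 39.5 and 40.3 CPM in H2BdIEC, against 78.3, 75.8, 80.6 and 82.4 CPM in control crypts (log2 fold change -0.94 ± 0.13, adjusted p = 0.00326). The ion carrier gene Slc12a2 had 339.9, 173, 215 and 218 CPM in H2BdIEC, against 439.8, 387, 459 and 493 CPM in control crypts (log2 fold change -0.91 ± 0.19, adjusted p = 0.0165). The calls of Olfm4, Lgr5 and Smoc2 held without any single library, that of Slc12a2 was lost without H2BdIEC 4 or control 3, and the count of markers that fell was 3 without either of these. Prom1 fell with a log2 fold change of -0.72 ± 0.18 and Igfbp4, an IGF-binding protein gene, rose by 0.64 ± 0.16 on the log2 scale, each with calls lost without at least 6 libraries.

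Other Wnt targets gave a mixed picture, with 3 of 13 tested members lower, 0 higher and a median of -0.21. The feedback ligase gene Znrf3 (log2 fold change -0.66 ± 0.15, adjusted p = 0.0258), the transcription factor gene Prox1 (log2 fold change -1.14 ± 0.25, adjusted p = 0.0211) and the sorting receptor gene Ephb3 (log2 fold change -0.65 ± 0.17, adjusted p = 0.038) were called lower, and 0 members were called without H2BdIEC 4, control 1 or control 3. Axin2, a general Wnt feedback gene, had 103, 105, 73.1 and 73.9 CPM in H2BdIEC and 99.7, 84.8, 124 and 96.5 CPM in control crypts (log2 fold change -0.19 ± 0.15, adjusted p = 0.439), and Rnf43 (log2 fold change 0.12 ± 0.11, adjusted p = 0.508) and Ccnd1 (log2 fold change -0.49 ± 0.2, adjusted p = 0.134) also overlapped. Of 24 tested replication genes 1 was lower and 0 higher, with a median of -0.29. Of 24 mitosis genes 3 were lower and 0 higher, with a median of -0.32. Without H2BdIEC 1, the library with the highest summed level of both lists among its group, 7 members of each were lower, and without H2BdIEC 4, control 1 or control 3 none was in either list. Ccna2, which encodes cyclin A2, had 74.9, 39.4, 58.4 and 59.3 CPM in H2BdIEC, against 107, 85, 94.5 and 80.4 CPM in control crypts (log2 fold change -0.66 ± 0.17, adjusted p = 0.0364). Nusap1, a spindle protein (-0.76, adjusted p = 0.0202), Ccnb2, which encodes cyclin B2 (-0.61, adjusted p = 0.0295), and Tyms, which makes thymidylate (-0.4, adjusted p = 0.0459), were called lower. Mki67 (-0.49, adjusted p = 0.0716), Top2a (-0.46, adjusted p = 0.0566), Mcm6 (-0.43, adjusted p = 0.0659), Pcna (-0.32, adjusted p = 0.175) and Rrm1 (-0.31, adjusted p = 0.129) were not called.

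Paneth cell markers had the largest share of members that fell among the secretory lineages listed here, 11 of 19 tested with 0 higher and a median of -1.62. Lyz1, which encodes Paneth lysozyme, had 1067, 1197, 1559 and 939.5 CPM in H2BdIEC, against 4089, 2321, 4717 and 3515 CPM in control crypts (log2 fold change -1.62 ± 0.24, adjusted p = 0.00401). Every H2BdIEC library lay below every control library, and control 2 was the lowest control. The defensin gene Defa24 had 631, 944, 820.3 and 567 CPM in H2BdIEC, against 2325, 1099, 2767 and 5018 CPM in control crypts (log2 fold change -1.92 ± 0.4, adjusted p = 0.0202). Defa21 and Defa23 fell with log2 fold changes of -2.21 ± 0.44 and -1.93 ± 0.39, but the defensin genes are near-identical copies, so single members are uncertain. Itln1, a lectin of Paneth and goblet cells, had 549, 787, 562 and 356 CPM in H2BdIEC and 1225, 752, 1560.3 and 1914 CPM in control crypts, where H2BdIEC 2 overlapped control 2 (log2 fold change -1.27 ± 0.3, adjusted p = 0.029). The Lyz1 call held without any single library, whereas the count of Paneth markers that fell was 1 without H2BdIEC 4 or control 3, 3 without control 1, 4 to 6 without H2BdIEC 1, 2 or 3 or control 4, and 14 without control 2.

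**Figure D3:**
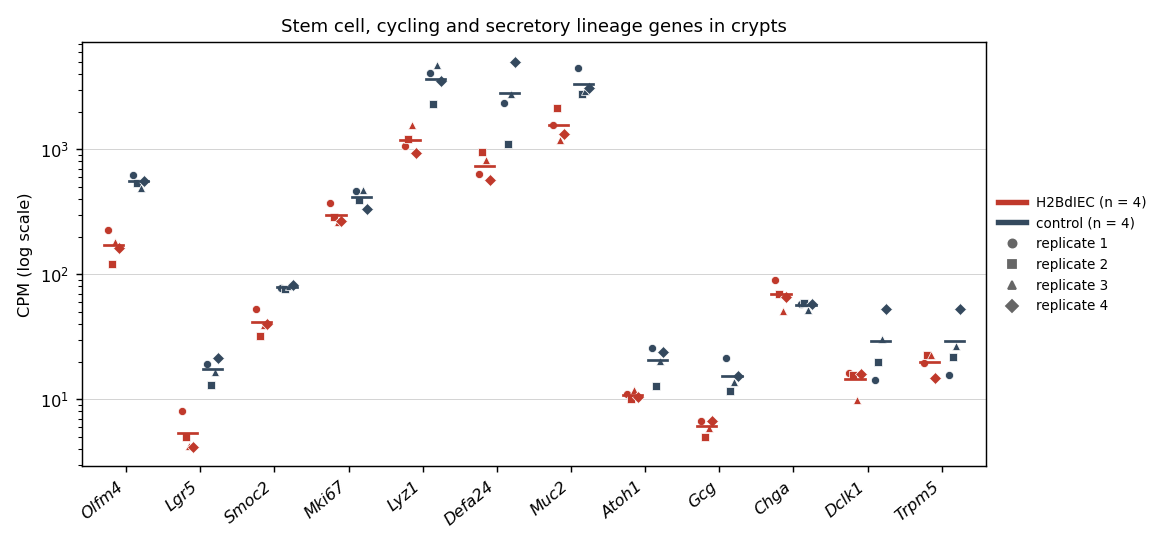
CPM on a log scale of stem cell, cycling and secretory lineage genes in each crypt library, with H2BdIEC left of control, marker shapes for replicates and a bar at the mean. Olfm4, Lgr5, Smoc2, Lyz1, Muc2, Atoh1 and Gcg do not overlap between the groups, and Chga, Dclk1 and Trpm5 do.

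Of 17 tested goblet cell markers 7 fell and 0 rose, with a median of -0.88. From 4 to 9 fell when 1 library was left out, with 4 without H2BdIEC 4. Muc2, the gel-forming mucin, had 1557, 2145, 1187 and 1333 CPM in H2BdIEC, against 4431, 2791, 2938 and 3087 CPM in control crypts (log2 fold change -1.09 ± 0.22, adjusted p = 0.0154), a call lost without H2BdIEC 4. Galnt12, which starts mucin sugar chains, had 20.5, 22, 20.5 and 23 CPM in H2BdIEC, against 45.5, 27.9, 41.2 and 44.1 CPM in control crypts (log2 fold change -0.88 ± 0.15, adjusted p = 0.00688). Creb3l1, a factor of secretory cells, had 9.37, 8.39, 7.16 and 8.57 CPM in H2BdIEC, against 17.6, 10.6, 16.3 and 18.1 CPM in control crypts (log2 fold change -0.9 ± 0.17, adjusted p = 0.0124). The chemokine gene Ccl6 averaged 25.5 ± 5.99 CPM in H2BdIEC and 67.3 ± 18 CPM in control crypts. The tryptase gene Tpsg1 averaged 4.14 ± 0.808 CPM in H2BdIEC and 9.95 ± 2.41 CPM in control crypts. The mucus genes Fcgbp (log2 fold change -0.64 ± 0.28, adjusted p = 0.156) and Muc13 (log2 fold change 0.31 ± 0.31, adjusted p = 0.541) did not pass the test. Atoh1, the factor that commits cells to the secretory fate, was the only one of 16 tested Notch and fate genes called, with 10.9, 9.96, 11.9 and 10.4 CPM in H2BdIEC, against 25.5, 12.8, 20.1 and 23.7 CPM in control crypts (log2 fold change -0.93 ± 0.19, adjusted p = 0.0154), and it was lost without H2BdIEC 4, while 2 of the list fell without H2BdIEC 1 or control 2. The Notch ligand gene Dll1 (0.08, adjusted p = 0.631) and the receptor genes Notch1 (-0.27, adjusted p = 0.293) and Notch2 (-0.33, adjusted p = 0.244) overlapped between groups.

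Enteroendocrine and tuft markers gave 2 and 0 calls. Of 18 tested enteroendocrine markers 2 fell and 0 rose, with a median of -0.16. Gcg, the proglucagon gene of L cells, had 6.66, 5.02, 5.87 and 6.74 CPM in H2BdIEC, against 21.3, 11.6, 13.7 and 15.3 CPM in control crypts (log2 fold change -1.34 ± 0.19, adjusted p = 0.00338), and the islet factor gene Isl1 was called lower (-0.98, adjusted p = 0.0313), lost without any of 6 libraries. The granin genes Chga, with 89.7, 70.0, 50.9 and 65.6 CPM in H2BdIEC and 58.2, 58.8, 51.3 and 57.5 CPM in control crypts (log2 fold change 0.29 ± 0.15, adjusted p = 0.217), and Chgb (log2 fold change 0.43 ± 0.15, adjusted p = 0.0934), and the hormone gene Gip (log2 fold change 0.07 ± 0.18, adjusted p = 0.826) did not pass. Of 13 tuft cell markers 0 passed the edgeR test in either direction, with a median of -1.02 (6 at an unadjusted p under 0.05, and 5 lower with DESeq2). Dclk1, a kinase that marks tuft cells, had 16.2, 15.7, 9.87 and 15.8 CPM in H2BdIEC and 14.3, 19.8, 30.6 and 52.3 CPM in control crypts (log2 fold change -1.02 ± 0.39, adjusted p = 0.132). Trpm5, a cation channel of tuft cells, had 19.5, 22.4, 22.8 and 14.8 CPM in H2BdIEC and 15.5, 21.9, 26.6 and 52.7 CPM in control crypts (log2 fold change -0.55 ± 0.36, adjusted p = 0.343). Control 4 held the highest value of both genes and of Lrmp (log2 fold change -0.64 ± 0.35, adjusted p = 0.261).

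Of 13 tested fetal-like and YAP targets 4 rose and 1 fell, with a median of 0.85. Only 2 rose without control 3, and 0 fell without any of 6 libraries. Of 10 tested genes of the EGF receptor and its ligands 1 rose and 1 fell, with a median of 0.14, while 2 rose without control 2 and 0 fell without any of 6 libraries. Ereg, which encodes the EGF receptor ligand epiregulin, had 10.1, 9.44, 9.87 and 11.8 CPM in H2BdIEC, against 3.86, 1.26, 3.37 and 2.55 CPM in control crypts (log2 fold change 1.9 ± 0.28, adjusted p = 0.00401). Il1rn, the interleukin-1 receptor antagonist, had 2.71, 1.57, 1.81 and 2.01 CPM in H2BdIEC, against 0.631, 0.432, 0.493 and 0.293 CPM in control crypts (log2 fold change 2.11 ± 0.31, adjusted p = 0.00374). Clu, which marks revival stem cells in mouse, had 6.12, 7.04, 3.42 and 3.67 CPM in H2BdIEC, against 2.67, 1.62, 1.29 and 1.34 CPM in control crypts (log2 fold change 1.54 ± 0.31, adjusted p = 0.0151), a call lost without control 3. Ccn1 was called (0.86, adjusted p = 0.0429) but lost when any 1 of the 8 libraries was left out, and the receptor gene Egfr (-0.42, adjusted p = 0.0437) and the keratin gene Krt7 (-0.56, adjusted p = 0.0273) were called lower with overlapping groups.

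Absorptive genes rose in selected functions. A score of proximal intestinal markers ran from 6.64 to 7.47 in H2BdIEC and from 5.26 to 6.15 in control crypts, on the log2 CPM scale, so genotype and sampled position cannot be told apart for these genes. Of 22 tested brush border genes 4 rose and 1 fell, with a median of 0.32 and a count of 1 higher without control 3, 2 without H2BdIEC 4 or control 1 and 6 without control 2. The alkaline phosphatase gene Akp3, which marks the duodenum, had 1901, 149, 378 and 1653 CPM in H2BdIEC, against 2.84, 4.5, 5.19 and 13.7 CPM in control crypts (log2 fold change 7.29 ± 1.14, adjusted p = 0.0145). The H2BdIEC libraries themselves spanned more than 10-fold, with H2BdIEC 2 lowest, and the call was lost without control 1 or control 3. Its neighbour Alpi had 1774, 912, 1202 and 1993 CPM in H2BdIEC, against 515, 646, 533 and 598 CPM in control crypts (log2 fold change 1.36 ± 0.23, adjusted p = 0.00731). Espn, which bundles actin in microvilli, averaged 104 ± 13.6 CPM in H2BdIEC and 68.3 ± 8.21 CPM in control crypts, a call lost without H2BdIEC 4 or control 3. The trehalase gene Treh was called higher (0.88, adjusted p = 0.0333) and the protease gene Mep1a lower (-0.9, adjusted p = 0.0387), both with overlapping groups. The disaccharidases Sis (log2 fold change 0.36 ± 0.17, adjusted p = 0.181) and Mgam (log2 fold change 0.44 ± 0.2, adjusted p = 0.167) and the peptidase Anpep (log2 fold change 0.12 ± 0.21, adjusted p = 0.742), the most abundant members, were not called.

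In fat absorption 2 of 21 tested genes rose and 0 fell, with a median of 0.41, and 6 rose without control 2 but 1 without H2BdIEC 2, 3 or 4 or control 1 or 3. Scarb1, a lipoprotein receptor of the proximal intestine, had 26.4, 9.66, 14.8 and 24.3 CPM in H2BdIEC, against 1.75, 3.46, 2.27 and 3.85 CPM in control crypts (log2 fold change 2.74 ± 0.36, adjusted p = 0.00374). Fabp1, a fatty acid binding protein, had 1736, 2179.7, 2666 and 2853 CPM in H2BdIEC, against 627, 1462, 712 and 1377 CPM in control crypts (log2 fold change 1.18 ± 0.29, adjusted p = 0.0314), a call lost without any of 5 libraries. Apob (0.18, adjusted p = 0.614), Apoa4 (0.78, adjusted p = 0.0796) and Fabp2 (0.62, adjusted p = 0.127) did not pass. Among 18 sugar and amino acid genes 3 rose and 1 fell, with a median of 0.23, and 0 rose without H2BdIEC 4, control 1 or control 3, 1 without H2BdIEC 3 or control 4 and 6 without control 2. Slc1a1, a glutamate transporter, had 41.2, 31.8, 35 and 33 CPM in H2BdIEC, against 115, 67.4, 114 and 135 CPM in control crypts (log2 fold change -1.61 ± 0.19, adjusted p = 0.00168), and held without any single library. The fructose enzyme gene Khk (log2 fold change 0.57 ± 0.14, adjusted p = 0.0333) and the gluconeogenic Fbp1 (log2 fold change 0.77 ± 0.2, adjusted p = 0.0397) rose, each lost without at least 5 libraries. The carriers Slc5a1 (0.34, adjusted p = 0.337) and Slc6a19 (0.24, adjusted p = 0.433) did not pass. Of 9 ileal uptake genes 1 rose, the nuclear receptor gene Nr0b2 with 2.38, 1.2, 1.03 and 2.37 CPM in H2BdIEC, against 0.386, 0.396, 0.493 and 0.503 CPM in control crypts (log2 fold change 1.98 ± 0.35, adjusted p = 0.00886). Fabp6, the ileal bile acid carrier, had 8.34, 4.87, 8.97 and 152 CPM in H2BdIEC and 748, 0.864, 415 and 159 CPM in control crypts, a spread of more than 100-fold among controls.

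Of 10 tested genes of iron handling 6 rose and 1 fell, with a median of 0.90. With H2BdIEC 4, control 1 or control 3 dropped 3 were higher, and with H2BdIEC 1 dropped 4. Slc40a1, which encodes the iron exporter ferroportin, had 225, 43.5, 100.4 and 189 CPM in H2BdIEC, against 10.4, 7.2, 5.61 and 8.63 CPM in control crypts (log2 fold change 4.13 ± 0.56, adjusted p = 0.0081). Slc11a2, which encodes the apical importer DMT1, had 92, 62.3, 72.2 and 101 CPM in H2BdIEC, against 45, 51.6, 39.3 and 38.7 CPM in control crypts (log2 fold change 0.91 ± 0.16, adjusted p = 0.00787). Fth1, the ferritin heavy chain, had 1599, 849, 1383 and 1771 CPM in H2BdIEC, against 456, 638, 554 and 666 CPM in control crypts (log2 fold change 1.28 ± 0.22, adjusted p = 0.00822). These 3 calls held without any single library. Ftl1, the ferritin light chain, rose by 0.59 ± 0.14 on the log2 scale. Tfrc, the transferrin receptor of dividing cells, fell, with 208, 147, 245 and 182 CPM in H2BdIEC, against 386, 378, 275 and 395 CPM in control crypts (log2 fold change -0.87 ± 0.17, adjusted p = 0.0133), a call lost without H2BdIEC 4. Heph, a ferroxidase of the basolateral membrane, did not pass (log2 fold change 0.34 ± 0.15, adjusted p = 0.155). In calcium handling 2 of 5 tested genes rose, and 0 without control 3. S100g, the calcium carrier calbindin-D9k, had 193, 22, 142 and 177 CPM in H2BdIEC, against 0.982, 1.26, 1.78 and 4.23 CPM in control crypts (log2 fold change 6.04 ± 0.87, adjusted p = 0.0114), a call lost without control 3, and H2BdIEC 2 was again the lowest of its group. The pump gene Atp2b1 was called (0.69, adjusted p = 0.039) and lost without any of 7 libraries, and Vdr, the vitamin D receptor, did not pass (log2 fold change 0.04 ± 0.13, adjusted p = 0.875).

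Of 11 tested metallothionein and zinc genes 2 rose and 0 fell, with a median of 0.06. Mt1, a metal-binding protein, had 327, 236, 326 and 357 CPM in H2BdIEC, against 47.6, 27.6, 54.7 and 50.1 CPM in control crypts (log2 fold change 2.79 ± 0.22, adjusted p = 0.000197), so the lowest H2BdIEC library was over 4-fold above the highest control. Mt2, named after its values were seen, had 25.2, 10.6, 17.7 and 12.5 CPM in H2BdIEC and 9.96, 3.85, 11.9 and 5.32 CPM in control crypts and did not pass the test (log2 fold change 1.09 ± 0.4, adjusted p = 0.114). The zinc importer gene Slc39a14 rose by 0.6 ± 0.15 on the log2 scale, lost without any of 5 libraries. Slc39a4 did not pass (log2 fold change 0.12 ± 0.15, adjusted p = 0.624).

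Of 19 tested glutathione transferases, which conjugate glutathione to reactive compounds, 7 rose, 0 fell and 12 did not pass, with a median of 0.60, while 3 were higher with control 3 dropped and 4 with H2BdIEC 1, H2BdIEC 4 or control 1 dropped. Gsta3 had 22.6, 13.8, 34.4 and 37.4 CPM in H2BdIEC, against 2.1, 1.33, 0.986 and 1.09 CPM in control crypts (log2 fold change 4.28 ± 0.37, adjusted p = 0.000521). Gsta4 had 133, 60.1, 105 and 151 CPM in H2BdIEC, against 18.6, 20.7, 19.5 and 35.9 CPM in control crypts (log2 fold change 2.25 ± 0.32, adjusted p = 0.00708). Gsta1 had 383, 199.9, 395 and 577 CPM in H2BdIEC, against 76.8, 94.7, 86 and 164 CPM in control crypts (log2 fold change 1.88 ± 0.34, adjusted p = 0.0142). Gsta2 rose by 2.57 ± 0.41 on the log2 scale. The alpha-class genes are close copies, so the split among Gsta1, Gsta2 and Gsta3 is uncertain. Gsto1 (0.44, adjusted p = 0.201) and Mgst3 (0.19, adjusted p = 0.51) did not pass. Of 15 other targets of NRF2, the factor of the antioxidant response, 4 rose and 1 fell, with a median of 0.32. Nfe2l2, which encodes NRF2, had 256, 274, 301 and 283 CPM in H2BdIEC, against 171, 199, 175 and 192 CPM in control crypts (log2 fold change 0.6 ± 0.1, adjusted p = 0.00767). Ugdh, which supplies glucuronic acid, had 374, 298, 360.1 and 480.0 CPM in H2BdIEC, against 159.6, 234, 179 and 229 CPM in control crypts (log2 fold change 0.92 ± 0.17, adjusted p = 0.0114). Txnrd1 rose by 0.46 ± 0.12 on the log2 scale, the cystine carrier gene Slc7a11 fell with a log2 fold change of -1.85 ± 0.44, and Prdx1 overlapped (log2 fold change 0.12 ± 0.21, adjusted p = 0.752). In the cytochrome P450 system 6 of 21 rose and 0 fell, with a median of 0.51. Nr1i3, the xenobiotic receptor CAR, had 73.2, 89.6, 65.6 and 96 CPM in H2BdIEC, against 31.2, 53.3, 37.1 and 48.7 CPM in control crypts (log2 fold change 0.93 ± 0.18, adjusted p = 0.0133) and held without any single library. Cyp2d26 (0.87, adjusted p = 0.0207), Cyp2c68 (0.55, adjusted p = 0.0293), Cyp2c65 (0.78, adjusted p = 0.0356) and Cyp3a11 (0.86, adjusted p = 0.0402) rose, and Cyp4f14 (0.47, adjusted p = 0.0696) and Cyp3a13 (0.57, adjusted p = 0.0745) did not pass. With H2BdIEC 4, control 1 or control 3 dropped 1 P450 member was higher, with H2BdIEC 3 dropped 2, and with control 2 dropped 10.

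Of 20 fatty acid oxidation genes and PPARA targets 5 rose and 1 fell, with a median of 0.33, and 2 rose without H2BdIEC 4 or control 3 and 3 without H2BdIEC 3, control 1 or control 4. Acadl, a dehydrogenase of long chains, had 96.9, 84.3, 120.0 and 141 CPM in H2BdIEC, against 54, 56.9, 61.3 and 65.5 CPM in control crypts (log2 fold change 0.9 ± 0.15, adjusted p = 0.00689). Pparg, a fat-sensing nuclear receptor, had 21.1, 13.9, 14.3 and 20.9 CPM in H2BdIEC, against 8.52, 11.2, 8.91 and 8.92 CPM in control crypts (log2 fold change 0.9 ± 0.17, adjusted p = 0.0109). Cyp4a10, a classical PPARA target, had 10.2, 3.44, 2.45 and 8.46 CPM in H2BdIEC, against 0.631, 1.84, 1.02 and 1.05 CPM in control crypts (log2 fold change 2.44 ± 0.49, adjusted p = 0.0176). Ehhadh rose by 0.54 ± 0.14 on the log2 scale, and the carnitine transferase gene Cpt1a fell with a log2 fold change of -0.6 ± 0.16. Of 18 hypoxia and glycolysis genes 5 rose and 1 fell, with a median of 0.23, and 0 rose without control 3, 1 without H2BdIEC 4 or control 1 and 2 without H2BdIEC 3. Gapdh had 481, 414, 580.0 and 582 CPM in H2BdIEC, against 267, 346, 281 and 328 CPM in control crypts (log2 fold change 0.75 ± 0.15, adjusted p = 0.0127), Pfkl rose by 0.62 ± 0.13 on the log2 scale, Pkm by 0.64 ± 0.15 and Epas1, which encodes HIF-2 alpha, by 0.89 ± 0.21. Pdk1 fell with a log2 fold change of -0.42 ± 0.1. Ldha overlapped (log2 fold change 0.24 ± 0.18, adjusted p = 0.399).

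Mitochondrially encoded transcripts rose in part. Of 13 mitochondrially encoded protein genes 7 rose and 0 fell, with a median of 1.0. Of 75 nuclear genes of the respiratory chain 0 passed the edgeR test in either direction, with a median of 0.11 (1 at an unadjusted p under 0.05, and 0 with DESeq2). mt-Co1 had 12012, 26839.5, 17235 and 18516 CPM in H2BdIEC, against 6372, 7639, 7517 and 11873 CPM in control crypts (log2 fold change 1.16 ± 0.28, adjusted p = 0.0298), and control 4 lay just below the lowest H2BdIEC library. mt-Nd1 (1.03, adjusted p = 0.0256), mt-Atp8 (1.35, adjusted p = 0.0198), mt-Nd6 (1.0, adjusted p = 0.0193) and mt-Cytb (1.07, adjusted p = 0.038) also rose. With control 1 or control 3 dropped 0 were called, with H2BdIEC 4 dropped 1, with H2BdIEC 2 dropped 2, with H2BdIEC 3 dropped 3 and with control 2 dropped 4. Control 4, when dropped, gave 10. Of 79 cytosolic ribosomal protein genes 2 fell and 0 rose, with a median of -0.37, and 6 fell without control 2 but 0 without H2BdIEC 4 or control 1, 3 or 4. Rps20 (log2 fold change -0.58 ± 0.15, adjusted p = 0.0339) and Rps4x (log2 fold change -0.64 ± 0.17, adjusted p = 0.0359) were called, and Rplp0 was not (log2 fold change -0.46 ± 0.17, adjusted p = 0.111).

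Markers of position along the intestine also separated the groups. The mean log2 CPM of the proximal markers was 7.47, 6.64, 7.01 and 7.34 in H2BdIEC crypts, against 5.42, 6.15, 5.26 and 5.94 in control crypts, with no overlap. Of 9 tested proximal markers 4 rose and 0 fell, with a median of 0.99. Of 10 distal markers 0 rose and 3 fell, with a median of -1.12. Leaving out control 2 gave 5 of each, H2BdIEC 4 or control 1 gave 1 of each, H2BdIEC 2 or 3 or control 3 gave 2 proximal and 1 distal, and H2BdIEC 1 or control 4 gave 3 proximal and 1 or 2 distal. Pdx1, a transcription factor of the duodenum and pancreas, had 23.5, 6.81, 19 and 21.1 CPM in H2BdIEC, against 0.351, 1.98, 0.19 and 1.93 CPM in control crypts (log2 fold change 4.0 ± 0.71, adjusted p = 0.0171), a call lost without H2BdIEC 4 or control 1. Meis2, a homeobox factor, had 10.8, 6.14, 10.1 and 11.2 CPM in H2BdIEC, against 0.561, 1.19, 1.06 and 0.838 CPM in control crypts (log2 fold change 3.39 ± 0.27, adjusted p = 0.000197). Among 20 regional transcription factors 2 rose and 4 fell, and 1 to 4 rose and 1 to 7 fell when 1 library was left out, both highest without control 2. Cdx1, an intestinal identity factor, had 68.5, 54.4, 57.4 and 67.1 CPM in H2BdIEC, against 105, 81.6, 111 and 102 CPM in control crypts (log2 fold change -0.69 ± 0.12, adjusted p = 0.00777). Osr2 (-0.89, adjusted p = 0.039), Foxa3 (-0.63, adjusted p = 0.0416) and Foxa1 (-0.66, adjusted p = 0.0443) were called lower, each lost without any of 7 libraries, and Hnf4a (-0.23, adjusted p = 0.208), Hnf4g (0.17, adjusted p = 0.412) and Tbx3 (0.33, adjusted p = 0.188) overlapped. Of 7 tested Hox genes 2 rose, against 3 without H2BdIEC 3 and 4 without control 4. They were Hoxa7 with 2.06, 2.77, 1.03 and 1.66 CPM in H2BdIEC, against 0.105, 0.036, 0 and 0.0419 CPM in control crypts (log2 fold change 5.16 ± 0.56, adjusted p = 0.000872) and Hoxa5 with 0.975, 0.899, 0.645 and 0.946 CPM in H2BdIEC, against 0.14, 0.072, 0.0379 and 0.335 CPM in control crypts (log2 fold change 2.56 ± 0.51, adjusted p = 0.0137). Hoxa3 did not pass (log2 fold change 1.53 ± 0.45, adjusted p = 0.0539). The proximal markers Adh6a (1.02, adjusted p = 0.0329) and Lct (0.31, adjusted p = 0.479) moved less, and Lct was not called.

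**Figure D4:**
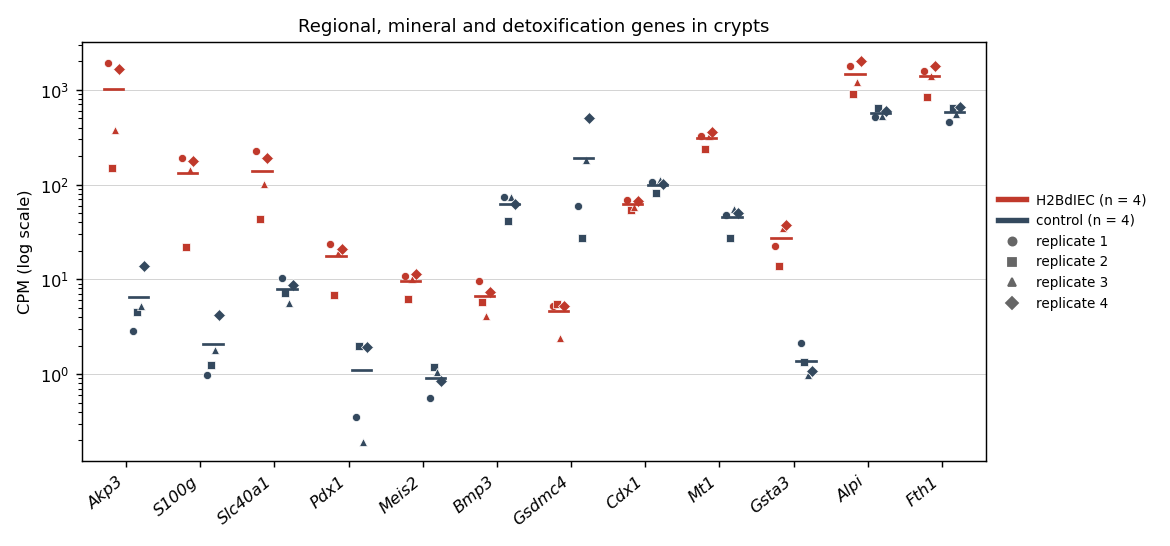
CPM on a log scale of regional, mineral, metal-binding and detoxification genes in each crypt library, with H2BdIEC left of control, marker shapes for replicates and a bar at the mean. The 12 genes shown were chosen from the genes called, and their groups do not overlap. H2BdIEC 2 is the lowest H2BdIEC library for Akp3, S100g, Slc40a1, Pdx1 and Meis2.

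Bmp3, a BMP ligand listed among the distal markers, had 9.64, 5.77, 4.13 and 7.39 CPM in H2BdIEC, against 74.5, 41, 74.7 and 61.9 CPM in control crypts (log2 fold change -3.22 ± 0.28, adjusted p = 0.000493) and held without any single library. Of 14 tested BMP pathway genes it was the only one called, while 1 rose and 3 fell without control 2. The gasdermin C genes belong to a family of pore-forming proteins, and 3 of 7 gasdermins fell. Gsdmc4 had 5.26, 5.47, 2.39 and 5.2 CPM in H2BdIEC, against 60.0, 27.6, 179.8 and 501 CPM in control crypts (log2 fold change -5.39 ± 1.08, adjusted p = 0.03), Gsdmc2 fell with a log2 fold change of -5.75 ± 1.19 and Gsdmc3 with -6.26 ± 1.42. Control libraries spanned more than 10-fold for Gsdmc4, with control 4 highest, the 3 calls were lost without any of 6 libraries, and the Gsdmc genes are close copies. Gsdmd, the gasdermin of pyroptosis, did not pass (log2 fold change 0.65 ± 0.21, adjusted p = 0.0681).

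Transcripts of stomach and pancreas differed between libraries of 1 group and, for some genes, between the genotypes. Tff1, a gastric trefoil peptide gene, had 218, 67, 136 and 3 counts in H2BdIEC crypts, against 1, 0, 0 and 0 in control crypts. Gkn1, which encodes gastrokine, had 139, 48, 168 and 1, against 0, 1, 0 and 0. H2BdIEC 4 was thus near 0 for both, as were the controls. Of 4 tested gastric and Brunner gland genes 2 rose. Without H2BdIEC 4 the count was 6 of 8 tested, and without control 2 or control 4 it was 4 of 8. The 2 were Tff2 with 2.87, 4.87, 3.22 and 0.946 CPM in H2BdIEC, against 0.0701, 0, 0 and 0 CPM in control crypts (log2 fold change 6.91 ± 0.78, adjusted p = 0.00115, a fitted value that rests on 2 counts over all controls) and Ctse, a gastric cathepsin, with 9.37, 1.42, 2.64 and 4.08 CPM in H2BdIEC, against 0.245, 0.252, 0.0758 and 0.251 CPM in control crypts (log2 fold change 4.38 ± 0.63, adjusted p = 0.00441). Of 11 tested acinar pancreas genes 0 passed the edgeR test (9 at an unadjusted p under 0.05, and 1 higher and 1 lower with DESeq2), and 7 were higher without H2BdIEC 2. The summed level of the acinar list was 36.9, 595, 42.6 and 36.9 CPM in H2BdIEC crypts, against 36.2, 25.6, 53.6 and 125 CPM in control crypts. Only H2BdIEC 2 stood above all controls in that sum, of which Clps, given below, was a large part in the controls. The mean log2 CPM of the tested acinar genes was 1.17, 5.28, 1.38 and 1.14 in H2BdIEC crypts. In control crypts it was -0.84, -0.79, -0.67 and -0.54, with no overlap. The median log2 fold change of these genes was 8.44. The lipase gene Pnlip had 42, 950, 32 and 25 counts in H2BdIEC crypts, against 0, 3, 2 and 0 in control crypts (log2 fold change 8.49 ± 2.33, adjusted p = 0.0677). The trypsin gene Prss2 had 13, 390, 22 and 6, against 0 in each control. For Pnlip and Prss2 every H2BdIEC library lay above every control library. H2BdIEC 2 stood above the other H2BdIEC libraries, also for the elastase gene Cela1 (log2 fold change 2.05 ± 0.62, adjusted p = 0.0794). Clps, the lipase cofactor, had 7.31, 16.6, 6.51 and 7.16 CPM in H2BdIEC and 24.1, 11.5, 34.5 and 90.2 CPM in control crypts, with overlapping groups (log2 fold change -2.1 ± 0.69, adjusted p = 0.102).

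**Figure D5:**
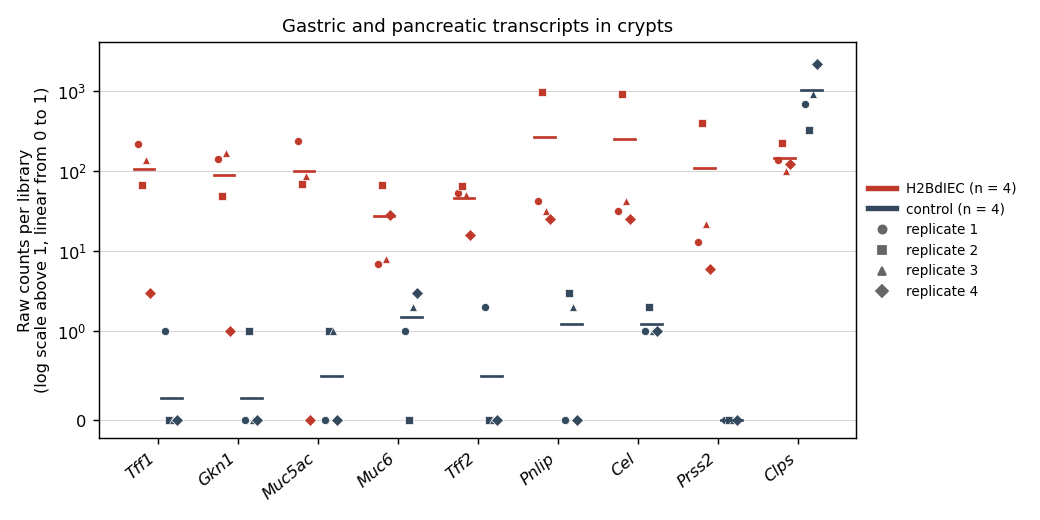
Raw counts per library of gastric and pancreatic genes in crypts, on an axis that is linear from 0 to 1 and logarithmic above, with H2BdIEC left of control and a bar at the mean. Tff1, Gkn1 and Muc5ac are high in H2BdIEC 1, 2 and 3 only, Pnlip, Cel and Prss2 are highest in H2BdIEC 2, and Clps counts are higher in the controls, whose libraries were deeper.

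The proximal score does not overlap between the genotypes, and it was also used as a covariate. With the score as a covariate, 18 genes were higher and 1 was lower. Of these 19 calls, 14 were also made in the same direction without the covariate. Among the 18 were Lama5, Ccp110, Psrc1, Trp53cor1 and Tff2, and 4 acinar pancreas genes that were not called without the covariate. The median log2 fold changes of the arrest targets of p53 and of the interferon-stimulated genes were 0.98 and 0.69 in that fit, against 1.01 and 0.68 without the covariate. Their calls were mostly lost in that fit, with 2 arrest targets and 0 interferon-stimulated genes higher, against 13 and 16. The cell-death targets had 0 higher and a median of 0.66, against 8 and 0.84. Of the stem cell markers 0 fell, against 6, with a median of -0.24, against -0.28. The median was -0.43 against -1.62 for Paneth markers and -0.05 against 0.90 for iron genes. It was -0.22 against 0.60 for glutathione transferases and -0.26 against 0.51 for the P450 system. The score itself includes the iron gene Slc40a1 and also Pdx1, Fabp1, Lct, Adh6a and Gip. That fit therefore adjusts these genes partly for their own levels. Because the score does not overlap between the genotypes, genotype and position cannot be told apart for any of these lists.

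Lists without a call numbered 16 of 68, and among them were heat shock chaperones with a median of 0.32 (2 of 11 at an unadjusted p under 0.05, 1 with DESeq2), immediate early genes with 0.16 (0 of 14, 0 with DESeq2) and aminoacyl-tRNA synthetases with -0.13 (4 of 17, 2 with DESeq2). In the list of the ATF4 program and unfolded protein response 1 of 19 tested members rose and 2 fell, with a median of -0.04. The count that rose was 0 without any of 7 libraries, and the count that fell was 0 without H2BdIEC 1, H2BdIEC 4 or control 3 and 1 without H2BdIEC 3, control 1 or control 4.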

How the data were processed

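RNA of isolated crypts was sequenced from TruSeq stranded mRNA libraries after RNeasy extraction, per the labels. The raw read counts per gene deposited by the authors were used as given. The submitters' processing notes name cutadapt 1.5 and 1.9, Trimmomatic 0.36, TopHat2 2.0.14, HTSeq and GRCm38; the strand setting of counting, the annotation release, the Cre driver and the floxed exons are not given in the sources used here. Genes and their antisense partners can therefore share reads. HTSeq's summary lines were left out; reads in no annotated gene were 30.1 to 35.0% of reads counted, ambiguous or in no gene. Gene counts of 15545059 to 25913155 per library set the precision. Symbols came from GENCODE M21 for 47310 of 47729 gene IDs, and those without a match held 0.0323% of counts. Promoter sequences are from RefSeq (GRCm38.p6).

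Groups followed the genotype labels, with the numbers 975, 976, 978 and 979 as H2BdIEC 1 to 4 and 970, 971, 972 and 981 as control 1 to 4. Genes were filtered with filterByExpr, scaled by TMM and tested with edgeR's robust quasi-likelihood F test (edgeR 4.0.16, limma 3.58.1, R 4.3.3), and called at a Benjamini-Hochberg adjusted p under 0.05. Fold changes are H2BdIEC over control, and SE is the log2 fold change over the root of F. Error in a level is the SD over 4 libraries. Alternatives used DESeq2 1.42.0, other scalings and filters, left-out libraries, scores of proximal and acinar genes as covariates and, added after the data were seen, sex. The main edgeR fit, but not the alternatives, was tested on simulated counts. Figures used Python 3.11.15 with matplotlib 3.10.9.

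The members and lists were chosen with earlier results of these data known. Named genes are the RNase H genes, up to 4 called members with the smallest p per direction and the 3 most abundant members of each list, and the 12 protein-coding genes per direction with the smallest p, an average log2 CPM of at least 3 and groups that do not overlap. Phlda3, Stat2, Isg15, Oas1g, Trim30a, Mt2 and the genes given by raw counts were added after their values were seen. A few members of the lists are counted but not reported here by name.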

Additional observations from a re-analysis of the deposited data

Results flagged for a closer look

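In each group of 4 libraries the highest or lowest library was examined for a gap to its nearest neighbour beyond Dixon's critical value. Of 462 groups examined 29 were marked, and chance marks about 1 in 20. Control 4 stood apart with 3.13% of reads ambiguous between genes, 18.8% of counts in the 10 most abundant genes and a mitochondrial share of 10.4%, and with the highest control level of Cdkn1b (60.4 CPM), Gsta4 (35.9 CPM) and mt-Atp8 (341 CPM).

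Control 2 stood apart for Anpep (4409 CPM), Lct (2914 CPM), Treh (380.1 CPM), Gsdmd (257 CPM), Parp1 (51.1 CPM), Dpysl2 (38.2 CPM), Pparg (11.2 CPM) and Prox1 (2.30 CPM). Control 3 did so for Tfrc (275 CPM), Mcm6 (87 CPM), Chga (51.3 CPM), Zmat3 (15.5 CPM) and Ctse (0.0758 CPM), and control 1 for Tff2 (0.0701 CPM, from 2 counts).

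H2BdIEC 2 had the highest level of its group of the pancreatic genes Pnlip (71.1 CPM), Cela1 (61.1 CPM) and Clps (16.6 CPM) and the lowest of Pcna (42.5 CPM). H2BdIEC 3 was lowest for Lct (1383 CPM), Dclk1 (9.87 CPM) and Gsdmc4 (2.39 CPM), H2BdIEC 1 stood apart for Nlrp6 (273 CPM), and H2BdIEC 4 was highest for Fabp6 (152 CPM).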

How the results depend on the processing

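The counts of genes higher (753) and lower (711) were 700 to 767 and 653 to 754 under other scalings, and 698 to 758 and 686 to 820 without a filter, with at least 1 CPM in 4 libraries, without robust estimation or without mitochondrial genes. DESeq2 called 1280 higher and 1110 lower, and 1462 of its 2390 calls were shared in direction with edgeR. With the proximal score as a covariate 18 were higher and 1 was lower, and with the acinar score 68 and 20. Neither score overlaps between the genotypes. With sex as a covariate, chosen after seeing the data, the counts were 634 and 578. Leaving out 1 library gave 277 to 991 higher and 201 to 848 lower. Of the 152 named genes called, 76 were called under every left-out library.

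Rnaseh2b changed by -2.0 with the proximal score (adjusted p = 0.384, edgeR) and -2.09 with the acinar score (0.0986, edgeR), and by -2.24 to -1.89 when 1 library was left out. The difference in mitochondrial share, 5.83 percentage points, was 1.18 over protein-coding genes alone (exact permutation p = 0.0286) and 4.56 to 7.28 when 1 library was left out, the highest without control 4. With the proximal score the log2 fold changes of 8 of the 152 named genes called turned round. They were Adh6a to -0.0793, Cyp2c65 to -0.26, Cyp3a11 to -0.32, Ehhadh to -0.0747, Epas1 to -0.25, Fbp1 to -0.44, Ephb3 to 0.10 and Osr2 to 0.41. Adh6a is itself a member of the score, and the cause was not tested. No paired analysis was possible because the H2BdIEC and control crypts carry different numbers in the labels.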

Other observations

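Calls were spread over all chromosomes, against 5.16% higher and 4.87% lower over all genes tested. Chromosomes 10, 13 and X were picked from all chromosomes for their uneven counts by direction, and evenness was not tested. On chromosome 10, 59 of 632 tested genes were higher and 15 lower. The direction was opposite on chromosome 13, with 13 higher and 39 lower of 543, and on chromosome X, with 12 higher and 35 lower of 410. On chromosome 14, which holds Rnaseh2b, 27 were higher and 31 lower of 456. The numbers of libraries by sex differ between the genotypes, with 2 female H2BdIEC libraries and 1 female control library, and the part of sex in the X-linked calls was not tested.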
